A study of Arabidopsis thaliana with 12 samples.

Results

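The 39 genes described here encode the histones of Arabidopsis thaliana, the proteins that package nuclear DNA. They were chosen by locus identifier from a list of H1, H2A, H2B, H3.1, H3.3 and H4 genes that uses no measured value, though it was drawn up with earlier results of these data known. All 39 were found among the 28642 genes of both deposited tables. Of these, 25 belong to replication-linked classes, 8 for H4, 5 for H3.1, 4 for canonical H2A and 8 for H2B. Another 11 encode variants, 3 for H3.3, 2 for H2A.X, 3 for H2A.W and 3 for H2A.Z, and 3 encode the linker histone H1. The reference annotation (RefSeq, TAIR10.1) names the histone family for 37 of the 39 loci, and the division into classes follows general knowledge of the gene family.

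A nucleosome holds DNA wrapped around an octamer of H2A, H2B, H3 and H4, and H1 binds the DNA between nucleosomes. Cells make replication-linked histones mainly in S phase, when new DNA has to be packaged, and in plants these messages carry a poly(A) tail, so a poly(A) library can hold them. Variants such as H3.3 and H2A.Z are made throughout the cell cycle and can be put in place outside replication. H3.3 marks transcribed genes, H2A.Z sits at gene starts and in responsive genes, H2A.X is a sensor of DNA breaks, and H2A.W lies in plant heterochromatin. In a young leaf S phase also occurs in endoreduplication, when cells copy their DNA without dividing.

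The study compared leaves 1 and 2 of seedlings harvested 10 days after stratification, at a stage labelled proliferation. Plants of all 4 groups grew on half-strength Murashige and Skoog medium, without addition for the controls, with 25 mM mannitol (a sugar alcohol that imposes mild osmotic stress), with 0.1 µM NAA (1-naphthaleneacetic acid, a synthetic auxin), or with both. Each group has 3 biological replicates, 12 samples in all, and the labels name no ecotype or genotype. The tables' library columns carry numbers that match no sample label. Levels, depth, fold changes and directions are therefore not analysed here, and the leaf label could not be set against marker levels.

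The measure used is the p-value per gene in the authors' deposited table, given for mannitol, for NAA and for both compounds against control. It says neither whether a transcript was higher or lower nor by how much, and in whole leaves fewer cells of a type and less RNA per cell cannot be told apart. The headers call the values detection p-values and the test behind them is not given in the sources used here. P-values were adjusted by the Benjamini-Hochberg method over all 28642 genes, and passing means an adjusted value under 0.05. That corresponds to a deposited p of at most 0.00453 for mannitol, 0.00636 for NAA and 0.0131 for both compounds. A p listed as 0 is taken as a small value, and 78 genes for mannitol, 74 for NAA and 423 for both compounds are so listed. Deposited values above 0 reach down to 1.75e-97, 9.98e-123 and 8.36e-288 in these comparisons, so what a 0 stands for is uncertain. Every call rests on reading the deposited values as they stand. Read instead as normal z values and set against a Student's t distribution (4 degrees of freedom), 0 histone genes and 0 of all genes passed after Benjamini-Hochberg adjustment in each comparison, with 3, 9 and 15 histone genes under 0.05 before it for mannitol, NAA and both compounds. The 3 comparisons share the control samples, so their p-values are not independent.

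The promoters of these genes show what the classes share at the DNA level, and stretches of them are printed first. Plant histone promoters are known for an octamer, CGCGGATC, and a hexamer, ACGTCA, which take part in S phase expression. Both were searched on both strands, from 250 bases before to 50 bases after the annotated gene start, in 27443 promoters of TAIR10.1. No octamer overlapped a hexamer in a histone promoter. The octamer occurred in 40 promoters (0.146%), and 10 of those 40 belong to the 39 histone genes. It was found in 7 of 25 replication-linked promoters, 2 of 11 variant promoters and 1 of 3 H1 promoters. In the whole set 2 promoters held more than 1 octamer, and both belong to histone genes, the H3.1 gene AT1G09200 and the canonical H2A gene HTA10 (AT1G51060).

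The next 7 stretches were chosen to show the octamer in H3.1, H4, canonical H2A, H3.3 and H1 genes. AT1G07660 (H4), HTA13 (AT3G20670, canonical H2A) and HTA6 (AT5G59870, H2A.W) hold it as well and are not printed. Each of the 7 printed stretches has 120 bases upstream of the annotated start, read on the gene's own strand. Capitals mark the octamer or its reverse complement GATCCGCG, and in AT5G10400 also the reverse complement of the hexamer, TGACGT. They lie at chr1:2972335-2972454 (minus strand) for AT1G09200, chr5:3271014-3271133 (minus) for AT5G10400, chr5:26120644-26120763 (minus) for AT5G65360, chr5:24051347-24051466 (plus) for AT5G59690, chr1:18926691-18926810 (plus) for HTA10, chr4:18558946-18559065 (minus) for AT4G40040 and chr1:2077768-2077887 (minus) for AT1G06760.
AT1G09200 (H3.1): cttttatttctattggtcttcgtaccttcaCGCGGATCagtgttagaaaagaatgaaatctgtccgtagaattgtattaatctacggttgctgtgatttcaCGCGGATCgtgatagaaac
AT5G10400 (H3.1): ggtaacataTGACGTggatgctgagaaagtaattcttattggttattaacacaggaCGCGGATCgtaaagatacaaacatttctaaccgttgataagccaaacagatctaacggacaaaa
AT5G65360 (H3.1): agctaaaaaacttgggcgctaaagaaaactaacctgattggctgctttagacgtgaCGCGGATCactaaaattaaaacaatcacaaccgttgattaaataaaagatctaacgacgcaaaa
AT5G59690 (H4): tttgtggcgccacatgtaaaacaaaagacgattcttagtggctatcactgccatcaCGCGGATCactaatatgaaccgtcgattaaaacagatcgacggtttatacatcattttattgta
AT1G51060 (canonical H2A): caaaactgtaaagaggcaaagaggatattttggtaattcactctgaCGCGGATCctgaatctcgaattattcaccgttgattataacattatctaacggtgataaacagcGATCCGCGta
AT4G40040 (H3.3): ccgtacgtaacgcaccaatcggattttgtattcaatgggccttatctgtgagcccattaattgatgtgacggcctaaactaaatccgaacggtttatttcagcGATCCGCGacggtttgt
AT1G06760 (H1): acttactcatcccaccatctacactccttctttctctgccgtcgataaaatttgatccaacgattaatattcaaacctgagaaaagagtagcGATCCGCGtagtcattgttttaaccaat

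The first base of each octamer match lay between positions -126 and -10 from the start. No H2B promoter held one. Instead all 8 H2B promoters held the hexamer, which was found in 9.19% of all promoters, in 11 of 25 replication-linked promoters and in 1 of 11 variant promoters. Of the H2B genes, HTB4 (AT5G59910) held its only match after the start, at position 40. In 5 histone promoters the hexamer ran on into TCGATCC, 4 of them wholly upstream of the start and AT1G07820 close to it. That longer stretch was noticed in the sequences and counted afterwards, in 7 of all 27443 promoters (0.0255%). The 4 are shown with the hexamer in capitals. They lie at chr2:15736607-15736726 (plus) for AT2G37470, chr3:19889145-19889264 (plus) for AT3G53650, chr3:16898106-16898225 (minus) for HTB9 and chr5:3473571-3473690 (minus) for AT5G10980, an H3.3 gene, which holds the hexamer in 2 places.
AT2G37470 (H2B): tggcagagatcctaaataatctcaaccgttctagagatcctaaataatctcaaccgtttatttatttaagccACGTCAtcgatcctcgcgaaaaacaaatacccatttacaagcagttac
AT3G53650 (H2B): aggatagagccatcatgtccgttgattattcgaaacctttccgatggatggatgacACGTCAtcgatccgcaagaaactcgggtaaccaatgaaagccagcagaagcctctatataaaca
AT3G45980 (H2B, HTB9): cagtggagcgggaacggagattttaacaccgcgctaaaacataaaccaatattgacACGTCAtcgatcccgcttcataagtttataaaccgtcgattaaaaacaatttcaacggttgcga
AT5G10980 (H3.3): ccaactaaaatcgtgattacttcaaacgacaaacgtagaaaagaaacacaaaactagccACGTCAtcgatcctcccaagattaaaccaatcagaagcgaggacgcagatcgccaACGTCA

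The other motifs searched, CATCCAACG (a nonamer of histone promoters) and TTTCCCGC (an E2F-type site), were found in 0 of 39 histone promoters, against 0.171% and 0.798% of all promoters. For 10 of the 39 genes some of the 250 bases before the start lie inside another annotated gene. The stretch is largest for AT3G27360 (all 250 bases, in AT3G27380), whose hexamer lies there, and for AT1G52740 (226 bases), AT4G40030 (208, in AT4G40040), AT1G08880 (202) and AT1G07820 (191). AT4G40040 has 99 such bases, which lie farther upstream than the stretch printed above. The counts of motifs include all 10 genes.

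**Figure D1:**
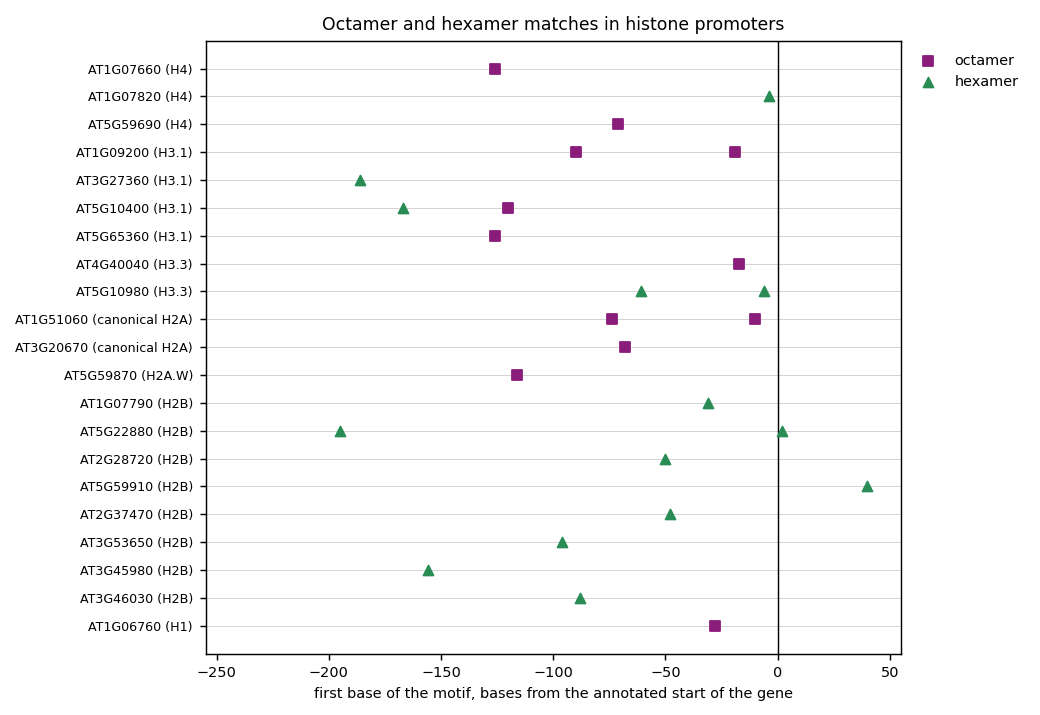
Places of the octamer (squares) and the hexamer (triangles) in the 21 histone promoters that hold at least 1 of them. The horizontal axis gives the first base of each match in bases from the annotated start, with upstream negative, and each row is a gene with its class in brackets. Octamers begin between -126 and -10 in H4, H3.1, H3.3, H2A and H1 genes, and all 8 H2B genes hold hexamers only.

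The comparison of both compounds with control held most of the passing histone genes. Of the 39, 18 passed, 46.2%, against 26.3% of all genes in the table and 35.2% of the 21121 genes whose p was under 1 in every comparison. Replication-linked genes made up 13 of those 18, and 13 of 25 passed (52%). The variants had 3 of 11 (27.3%) and H1 had 2 of 3. With Bonferroni adjustment the order of the classes was the reverse, with 2 of 25 replication-linked genes and 3 of 11 variants (8.46% of all genes). The median p in the authors' deposited table was 0.0104 for replication-linked genes and 0.365 for variants, beside 0.293 for all genes and 0.0805 for genes with a p under 1 throughout. Members resemble each other in sequence and were not tested as a set, so the counts are a description.

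H4 pairs with H3 in the core of every nucleosome and has no variant class in Arabidopsis. With both compounds 5 of its 8 genes passed, at a deposited p of 1.39e-05 for AT5G59970, 0.000454 for AT2G28740, 0.000964 for AT3G46320, 0.00131 for AT3G45930 and 0.00615 for AT5G59690 in the authors' deposited table. AT1G07660 (p = 0.0332), AT3G53730 (0.324) and AT1G07820 (0.632) did not pass in the authors' deposited table after adjustment. Each of the 8 has 312 coding bases.

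H3.1 is the form of H3 laid down behind the replication fork. Among its 5 genes 4 passed with both compounds, AT5G10390 (p = 1.24e-06), AT5G10400 (1.33e-05), AT5G65360 (0.00112) and AT3G27360 (0.0104) in the authors' deposited table. AT5G10390 and AT5G10400 are neighbours on chromosome 5, 577 bases apart on the same strand with no gene between them. AT1G09200, the gene with a pair of octamers, was listed at 0.475 in the authors' deposited table and did not pass. AT3G27360 overlaps the annotation of AT3G27380 on the same strand, and 35.6% of its 50-base windows also occur in another gene's transcript, so its value is uncertain.

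Canonical H2A had 2 of 4 genes passing with both compounds. HTA2 (AT4G27230, p = 2.16e-06) and HTA1 (AT5G54640, 6.1e-05) passed in the authors' deposited table, and HTA10 (0.0532) and HTA13 (AT3G20670, 0.0535) were listed just above 0.05. HTA1 is also known as a gene needed for Agrobacterium transformation of roots. The pair that passed carries no octamer in its promoter, while the other pair, HTA10 and HTA13, does.

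H2B, the partner of H2A, had 2 of 8 genes passing with both compounds. That share, 25%, lay near the 26.3% of all genes and below the 35.2% of genes with a p under 1 throughout. AT3G53650 had the smallest p of any replication-linked gene, 1.45e-08, and AT2G37470 had 0.000347 in the authors' deposited table. These 2 genes are each other's closest relatives, with 86.1% identical coding bases. HTB1 (AT1G07790, p = 0.0168) and HTB2 (AT5G22880, 0.0474) were under 0.05 only before adjustment in the authors' deposited table. The other H2B genes, HTB9 (0.121), HTB11 (AT3G46030, 0.293), AT2G28720 (0.345) and HTB4 (AT5G59910, 0.701), did not pass in the authors' deposited table after adjustment.

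Variants passed with both compounds in 3 cases. AT5G10980, an H3.3 gene, had the smallest p of all 39 genes in that comparison, 3.51e-12, and AT4G40040, also H3.3, had 3.58e-08 in the authors' deposited table. HTA9 (AT1G52740), 1 of 3 genes for H2A.Z, was listed at 7.27e-07 in the authors' deposited table. The third H3.3 gene, AT4G40030, had 0.549 in the authors' deposited table although it lies 42 bases from AT4G40040 and shares 88.8% of its coding bases. Both H2A.X genes, HTA3 (AT1G54690, p = 0.224) and HTA5 (AT1G08880, 0.993), all 3 H2A.W genes (0.365 to 0.528) and the H2A.Z genes HTA8 (AT2G38810, 0.121) and HTA11 (AT3G54560, 0.757) did not pass, by the p-values of the authors' deposited table. Of the H2A.X and H2A.W genes 0 were under 0.05 before adjustment.

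**Figure D2:**
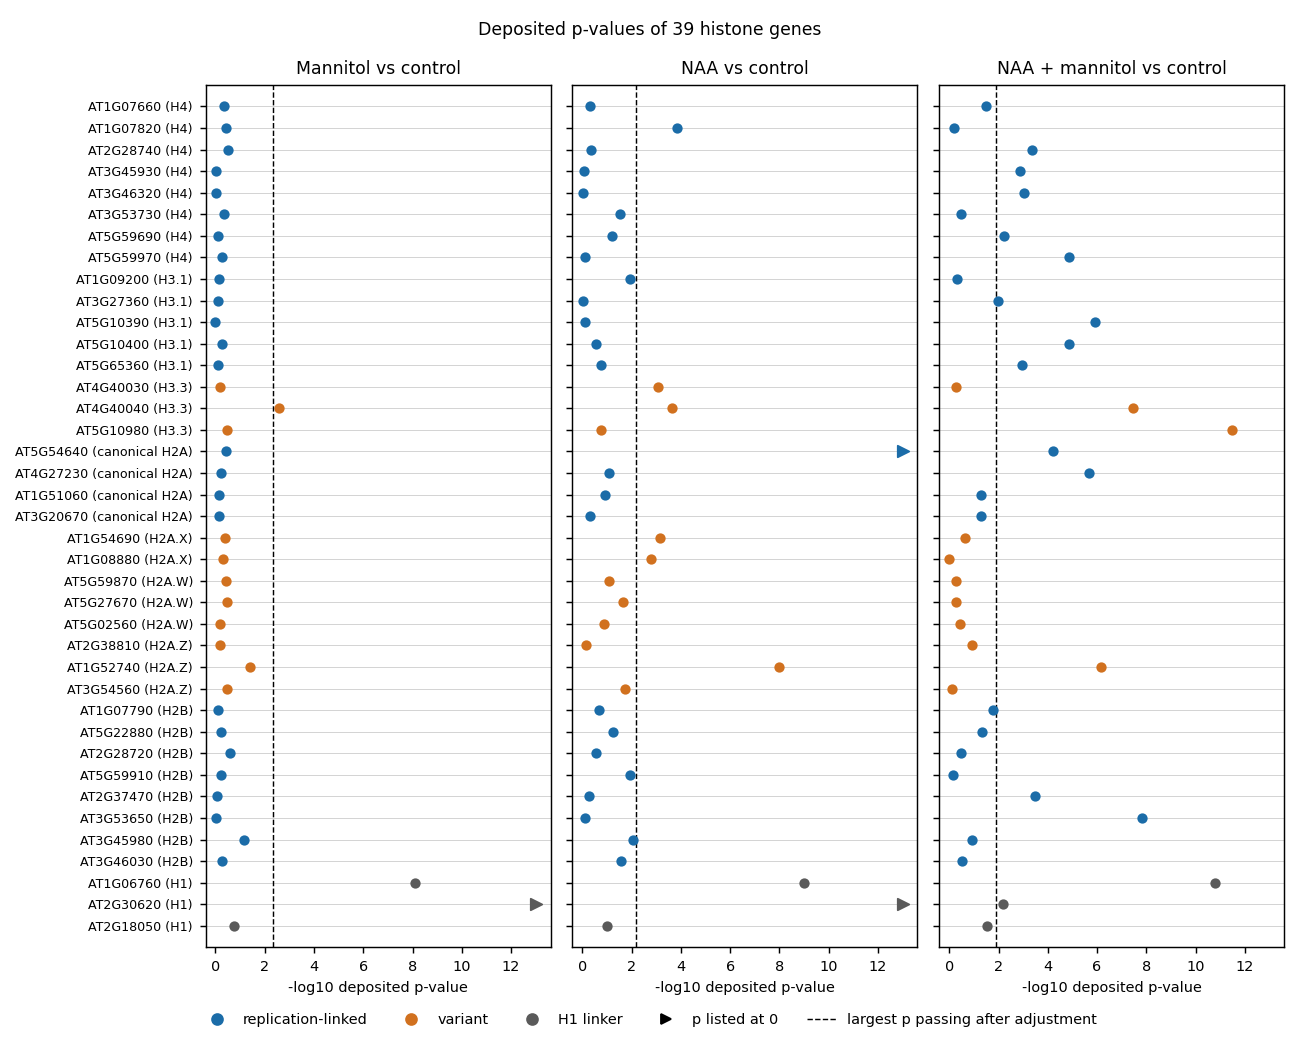
Deposited p-value of each of the 39 histone genes as −log10, 1 panel per comparison with control, with loci and classes on the vertical axis. Blue points are replication-linked genes, orange points variants and grey points H1, arrowheads mark a p listed at 0, and the dashed line is the largest p that passed (0.00453, 0.00636 and 0.0131 from left to right). In the mannitol panel every blue point lies left of the line, and in the panel for both compounds 13 of 25 lie right of it.

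In the comparison of NAA with control 9 of 39 histone genes passed, 23.1%, against 12.8% of all genes and 17.4% of genes with a p under 1 throughout. Variants contributed 5 of 11 (45.5%), replication-linked genes 2 of 25 (8%) and H1 2 of 3. The median p was 0.0185 for variants and 0.211 for replication-linked genes in the authors' deposited table, beside 0.406 for all genes and 0.24 for genes with a p under 1 throughout.

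Of the variants, HTA9 led with p = 1.05e-08 in the authors' deposited table. The H3.3 genes AT4G40040 (p = 0.000228) and AT4G40030 (0.000832) passed in the authors' deposited table, and AT5G10980 (0.171) did not. Both H2A.X genes passed, HTA3 at 0.000705 and HTA5 at 0.00164 in the authors' deposited table. H2A.X is the form whose phosphorylation marks DNA breaks, and its 2 genes share 88.3% of coding bases. H2A.W passed in no gene, with HTA7 (AT5G27670, p = 0.0216), HTA6 (AT5G59870, 0.0838) and HTA12 (AT5G02560, 0.137) in the authors' deposited table, HTA7 alone being under 0.05 before adjustment. The H2A.Z gene HTA11 (p = 0.0185) was likewise under 0.05 only before adjustment, and HTA8 was at 0.706 in the authors' deposited table.

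The 2 replication-linked genes that passed under NAA were HTA1, listed at a p of 0, and the H4 gene AT1G07820 at 0.000149 in the authors' deposited table. Among the other H4 genes the deposited p ran from 0.03 for AT3G53730 to 0.897 for AT3G46320 in the authors' deposited table. The 5 H3.1 genes ran from 0.012 (AT1G09200) to 0.93 (AT3G27360) in the authors' deposited table, and none passed, with 1 under 0.05 before adjustment. None of the 8 H2B genes passed either. Before adjustment 21.8% of all genes were under 0.05, and of the H2B genes HTB9 (p = 0.00872), HTB4 (0.0116) and HTB11 (0.0274) in the authors' deposited table. The H2B genes with the smallest p under both compounds were not among them, with 0.771 for AT3G53650 and 0.544 for AT2G37470 under NAA in the authors' deposited table.

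In the comparison of mannitol with control 3 of 39 histone genes passed, 7.69%, against 9.07% of all genes and 12.2% of genes with a p under 1 throughout. Of the 25 replication-linked genes 0 passed, and before adjustment 0 were under 0.05. The smallest p was 0.0688 for HTB9 and the median 0.571 in the authors' deposited table, beside 0.459 for all genes and 0.299 for genes with a p under 1 throughout. AT4G40040 was the only variant that passed (p = 0.00262 in the authors' deposited table), and HTA9 had 0.0378 before adjustment.

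Of the 3 H1 genes, 2 passed in all 3 comparisons. AT1G06760 had p = 7.91e-09 for mannitol, 1.03e-09 for NAA and 1.67e-11 for both compounds in the authors' deposited table. AT2G30620 was listed at 0 for mannitol and for NAA, and at 0.00684 for both compounds in the authors' deposited table. Without directions it is not known whether the H1 transcripts moved the same way in each comparison. HIS1-3 (AT2G18050), the short H1 form known to be induced by drought and abscisic acid, passed in none, with p = 0.179 for mannitol, 0.101 for NAA and 0.0304 for both compounds in the authors' deposited table. Its coding sequence is 504 bases long, against 825 for AT1G06760 and 822 for AT2G30620, and shares 41% of bases with AT1G06760, where the 2 long genes share 66.5%. Both AT1G06760 and AT2G30620 overlap a gene on the opposite strand, AT1G06750 and AT2G30630. Libraries were made with a stranded kit, but the strand setting of the counting is not given in the sources used here, so reads of the overlapping partners may not be told apart.

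**Figure D3:**
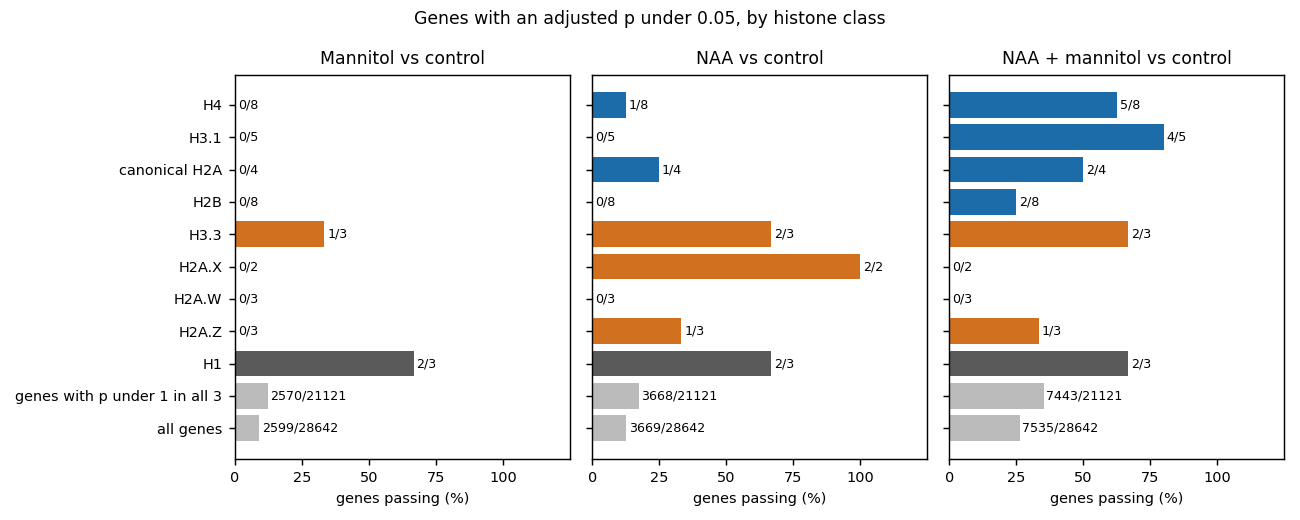
Share of genes with an adjusted p under 0.05 in each histone class, in percent, 1 panel per comparison with control; the fraction at each bar gives passing genes over genes in the class. Blue bars are replication-linked classes, orange bars variants, dark grey H1 and light grey the 2 backgrounds. Bars for H4 and H3.1 reach 62.5% and 80% with both compounds and 0% with mannitol, and those for H2A.X stand at 100% with NAA and 0% in the other comparisons.

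Set side by side, 17 of the 39 genes passed in no comparison, 17 in 1, 2 in 2 and 3 in all 3. Of all genes 67% passed in none, 20.9% in 1, 9.18% in 2 and 2.99% in all 3. Those in all 3 were the H1 genes AT1G06760 and AT2G30620 and the H3.3 gene AT4G40040. HTA1 and HTA9 passed with NAA and with both compounds. A further 13 of 39 genes passed in the combined treatment alone, as did 14.8% of all genes and 19.7% of genes with a p under 1 throughout. Of these 13, 12 are replication-linked, a class that makes up 25 of the 39, and the other is AT5G10980. With NAA alone 4 genes passed, the H4 gene AT1G07820, HTA3, HTA5 and AT4G40030, beside 4.34% of all genes and 5.89% of genes with a p under 1 throughout. Whether the combined treatment differed from mannitol or from NAA in any of these genes was not tested, since that needs values per library.

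In gene structure, 20 of the 25 replication-linked genes and 5606 of 27432 annotated genes have no intron. No H3.1 or H2B gene has an intron and 7 of 8 H4 genes have none, whereas all 4 canonical H2A genes, all 11 variants and all 3 H1 genes have at least 1 in the first annotated isoform. Passing genes were found with and without an octamer, and the difference was not tested. With both compounds 5 of 10 genes with an octamer passed and 13 of 29 without one. With NAA these counts were 2 of 10 and 7 of 29, and with mannitol 2 of 10 and 1 of 29. Among replication-linked genes with both compounds they were 3 of 7 and 10 of 18.

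Near-identical copies limit what a single locus can show. Identity of coding sequences reached 98.1% for AT1G07660 and AT1G07820, 97.4% for AT3G45930 and AT3G46320 and 97.1% for AT5G59690 and AT5G59970, while the median over all 28 H4 pairs was 82.4%. Of 50-base windows in the transcripts of the first pair, 26.7% and 19.4% also occur in the other copy. In the second pair the shares are 25.7% and 27.9%, and in the third 8.48% and 6.94%. For these 6 genes, reads may have been split or dropped by the authors' counting, which is not described in the sources used here. None of the 11 variants and none of the H1 genes shares such a window with another gene. Overlap with a gene on the opposite strand, given above for AT1G06760 and AT2G30620, is a separate limit. It also applies to the variants HTA9 (with AT1G52750), HTA3 (AT1G54680) and HTA12 (AT5G02570). Among replication-linked genes it applies to HTA13 (AT3G20680) and HTB9 (AT3G45970).

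The first pair did not have like p-values. Under NAA AT1G07820 stood at 0.000149 and AT1G07660 at 0.509, and with both compounds at 0.632 and 0.0332 in the authors' deposited table. In the second pair they were close throughout, with AT3G45930 and AT3G46320 at 0.981 and 0.964 for mannitol, 0.84 and 0.897 for NAA, and 0.00131 and 0.000964 for both compounds in the authors' deposited table. These genes are copies upstream of the start as well. Of the last 120 bases before it, at chr3:16883196-16883315 (plus) and chr3:17020429-17020548 (minus), 2 differ, and capitals mark them.
AT3G45930 (H4): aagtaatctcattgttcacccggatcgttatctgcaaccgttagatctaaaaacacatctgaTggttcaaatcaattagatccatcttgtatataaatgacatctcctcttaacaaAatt
AT3G46320 (H4): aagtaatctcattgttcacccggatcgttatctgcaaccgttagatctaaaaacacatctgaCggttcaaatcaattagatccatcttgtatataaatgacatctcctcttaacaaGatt

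**Figure D4:**
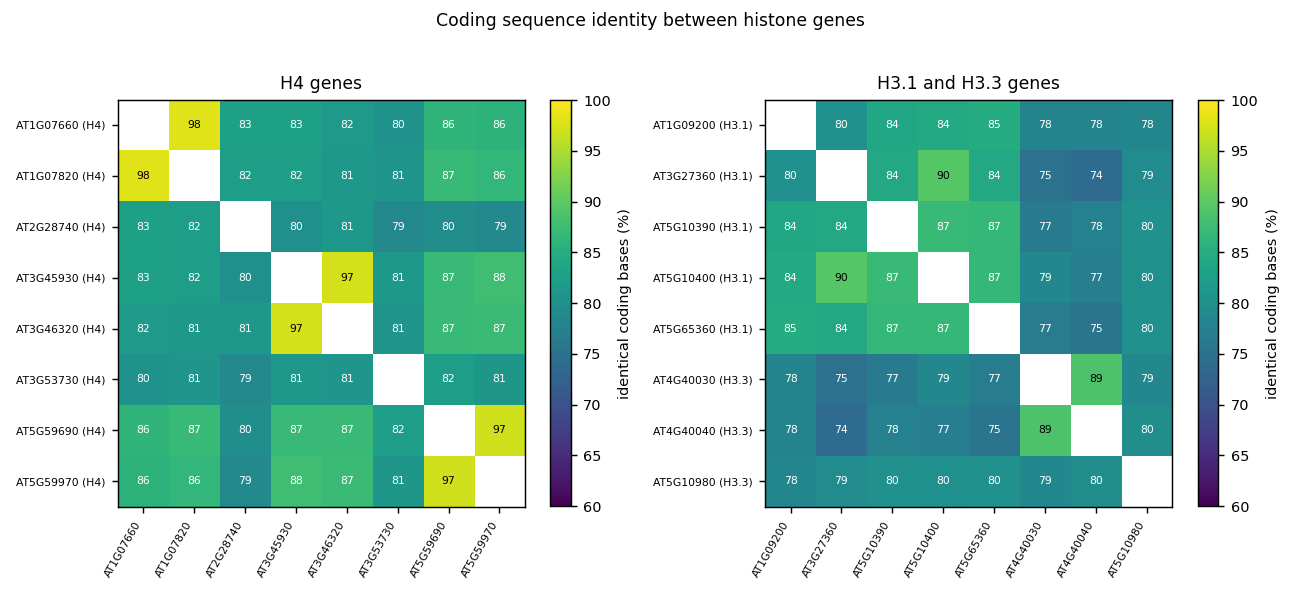
Identical bases in aligned coding sequences, in percent of the longer sequence, for all pairs of the 8 H4 genes (left) and of the 5 H3.1 and 3 H3.3 genes (right), with darker colours for lower identity. Among H4 genes 3 pairs stand at 97.1% to 98.1%, and pairs of an H3.1 and an H3.3 gene run from 74% to 80.3%.

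Histones reach DNA through chaperones and exchange complexes, and 14 genes for these were examined beside the members. With both compounds 5 of 14 passed (35.7%, against 26.3% of all genes) and with NAA 2 of 14 (14.3%, against 12.8%). With mannitol 0 of 14 passed, against 9.07% of all genes, and none of them was under 0.05 before adjustment. Of the 5 that passed with both compounds, 3 encode subunits of the SWR1 complex, which exchanges H2A for H2A.Z. These were PIE1 (AT3G12810, p = 1.75e-14), ARP6 (AT3G33520, 5.61e-12) and SEF (AT5G37055, 2.72e-06) with both compounds in the authors' deposited table. PIE1 also passed under NAA (8.79e-07 in the authors' deposited table), where ARP6 (0.0129) and SEF (0.0518) did not. HIRA (AT3G44530), the chaperone that deposits H3.3, passed with NAA (0.00027) and with both compounds (0.000998) in the authors' deposited table. FAS1 (AT1G65470), the large subunit of the CAF-1 chaperone that deposits H3.1 at replication, passed with both compounds (0.00133 in the authors' deposited table). FAS1 lies outside the rule for named genes and was named after its value was seen.

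Genes of S phase outside the histones gave 1 of 7 passing with both compounds (14.3%, against 26.3% of all genes). With NAA or mannitol 0 of 7 passed, against 12.8% and 9.07% of all genes. The S phase gene that passed was PCNA1 (AT1G07370, p = 8.28e-05 in the authors' deposited table), the sliding clamp of DNA polymerases. Before adjustment 1 of the 7 was under 0.05 with NAA, CYCA3;2 (AT1G47210, 0.015 in the authors' deposited table), and 0 with mannitol. Of 10 further histone genes outside the members, 2 passed with both compounds (20%, against 26.3% of all genes). These were AT5G65350 (HTR11, 0.00188) and AT5G02570 (0.00627) in the authors' deposited table. With NAA 1 of 10 passed (10%, against 12.8% of all genes), AT5G02570 at 0.00241 in the authors' deposited table, and with mannitol 0 of 10. AT5G02570 overlaps the annotated HTA12 gene on the other strand, and 4 of the 10 were listed at a p of 1 in every comparison.

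Markers of leaf, root, shoot meristem and dividing cells, 3 genes each, passed in few cases. Of all genes 9.07% passed for mannitol, 12.8% for NAA and 26.3% for both compounds. Under mannitol 1 of 3 markers of dividing cells passed, CYCB1;1 (AT4G37490, p = 4.74e-05), which also passed with both compounds (0.0103 in the authors' deposited table). With both compounds 1 of 3 leaf markers passed, CAB1 (AT1G29930, 0.00202 in the authors' deposited table), and no marker passed under NAA. No root or meristem marker passed in any comparison, and none of these was under 0.05 before adjustment. All meristem values and several root values were at 0.317 or at the largest p possible in the authors' deposited table. The value 0.317, the p of a z of 1, was shared by 1235, 1290 and 1218 genes for mannitol, NAA and both compounds. Without levels such tied values cannot be read further, so they do not show that these genes were unchanged. The part of changes in cell make-up in the histone results was not tested.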

How the data were processed

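RNA from leaf pairs of 12 samples was sequenced with a stranded mRNA kit, per the labels' protocols. The submitters' processing notes name TAIR10 as the genome build. The sources used here name neither aligner nor counting method nor test. The values used are the p-values of the authors' deposited table for 3 comparisons, per the file headers. The 24 library columns were not used because their numbers match no label, so the count model named in the design, its depth and its replicate checks were not run.

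P-values were adjusted by the Benjamini-Hochberg method over 28642 genes (Python 3.11.15, numpy 2.4.6, pandas 2.3.3, scipy 1.17.1), and the adjustment was tested on simulated data. Gene structure, promoters, windows of 50 bases and coding identity (Biopython 1.88, global alignment) came from the RefSeq genome and annotation of TAIR10.1, with the first annotated isoform of each gene. Coding sequences replaced the planned protein comparison. All 39 members matched, and symbols are used where that reference pairs them with the locus. All members may be named, and of the other lists up to 4 genes a comparison with the smallest adjusted p, with FAS1 as an exception. The members and lists were chosen with earlier results of these data known. Alternatives were unadjusted thresholds of 0.05 and 0.01, Bonferroni adjustment, an adjusted p under 0.01, adjustment over the 21121 genes listed below 1 throughout, and a Student's t reading (4 degrees of freedom).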

Additional observations from a re-analysis of the deposited data

How the results depend on the processing

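Under the settings run, counts of passing histone genes depended most on the reference distribution. Each p was also read as a normal z and compared with a Student's t distribution (4 degrees of freedom), with a p of 0 at its lowest z of 8.29. After Benjamini-Hochberg adjustment in Python 0 histone genes then passed in each comparison, as did 0 of all genes. Placed so, a listed 0 ranks behind the smallest printed p-values. The counts of 0 may depend on that placing, so they do not settle the calls of genes listed at 0. Before adjustment 3, 9 and 15 histone genes were under 0.05 for mannitol, NAA and both compounds, of 39 (9.48%, 12.5% and 22.6% of all genes). With Bonferroni adjustment NAA gave 4 passing histone genes (1 replication-linked, 1 variant, 3.31% of all genes passed). Under mannitol 0 of 11 variants then passed (2.44% of all genes). For both compounds Bonferroni adjustment left 6, among them 2 of 25 replication-linked genes and 3 of 11 variants (8.46% of all genes). The variants then had the larger share, whereas under the main setting the replication-linked genes had it (13 of 25 against 3 of 11). At an unadjusted p under 0.05 NAA gave 16 (7 replication-linked, 21.8% of all genes), and mannitol 2 of 11 variants (17.9% of all genes). An adjusted p under 0.01 left 0 of 11 variants for mannitol (6.06% of all genes). The other counts of passing histone, replication-linked and variant genes stayed within 1.5 times under these settings, at an unadjusted 0.01 and with adjustment over genes with a p under 1 throughout. Under every setting but the t reading 2, 4 and 6 of the 39 genes passed for mannitol, NAA and both compounds, among them AT1G06760 each time. The strictest of these settings, Bonferroni adjustment, was passed by 2.44%, 3.31% and 8.46% of all genes. No paired analysis was possible because columns of single libraries could not be tied to labelled replicates. For the same reason other count models, filters, scalings and leaving out a library were not run, and what depth limits is not analysed here.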
